A study of Caenorhabditis elegans with 2 samples.

Results

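Optimal binding peaks of a tagged nuclear hormone receptor whose summits lay in the promoter windows of 2 or more genes at once were examined on the 5 autosomes of Caenorhabditis elegans. The window of a gene began 1000 bp before each 5′ end annotated for it and closed 250 bp past that end, for protein-coding genes of Ensembl release 115 (genome build WBcel235, the same sequence as ce11). Of 2833 autosomal optimal peaks, 476 had such a shared summit, and these are called members here. The whole series held 3647 optimal peaks. The 476 members were 438 peaks between or beside divergent genes, 34 peaks upstream of same-strand neighbours, and 4 peaks at genes on opposite strands whose 5′ ends overlapped. A summit lay in 2 windows for 447 members, in 3 windows for 28 and in 4 windows for 1 member. Together the members covered the windows of 960 genes.

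The assay was chromatin immunoprecipitation followed by sequencing of an eGFP fusion of NHR-21, in whole L2 larvae of both sexes. The strain was OP361, genotype unc-119(tm4063) III with the transgene insertion wgIs361, and both biological replicates carried it, so the series held 1 group of 2 samples. The antibody label names nhr-21, while the description names the eGFP fusion. The sources used here state neither what drives the transgene nor how many animals were pooled, and chromatin of whole larvae does not tell in which cells a site was bound. The control alignment named beside the peak lists was not analysed here. The files hold intervals and scores but no read counts, so the depth is unknown. With 1 group of 2 replicates no difference between conditions could be tested, and peaks are not replicates of a condition. Shares of peaks are therefore given with 95% Wilson intervals, which cover counting error only, and no test was run on the differences between kinds of peaks.

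Nuclear hormone receptors are transcription factors with a zinc-finger DNA-binding domain, and many are regulated by small lipophilic ligands. The family is greatly expanded in nematodes, and the classical half-site bound by such receptors reads AGGTCA. In the compact worm genome, neighbouring genes often stand back to back and share a short intergenic stretch, so that 1 bound site can lie upstream of both. Same-strand neighbours are often parts of an operon, whose downstream genes are trans-spliced, so that their annotated 5′ end need not be a start of transcription.

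The DNA under the strongest members is shown first, because the later results on base composition and short words refer to it. Each window holds the summit base with 50 bp on either side, and this is the stretch meant below by the DNA at a summit. The windows were taken from the RefSeq genome of build WBcel235 and read 5′ to 3′ on the strand given. The stretches shown are free of annotated exons. Capitals mark the E-box word CACGTG, the purine word GAGAGA and the frequent word ACGCAG, on either strand. The 6 divergent members below range from a pooled signal of 571 to 987, and the last 2 lines are a member with CACGTG at its summit and the strongest same-strand member.
rpl-20/Y17G9B.5, chrIV:4750018-4750118, plus strand: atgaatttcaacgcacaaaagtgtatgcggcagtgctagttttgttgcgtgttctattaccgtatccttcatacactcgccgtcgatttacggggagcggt
K01G5.10/tasp-1, chrIII:10759202-10759302, plus strand: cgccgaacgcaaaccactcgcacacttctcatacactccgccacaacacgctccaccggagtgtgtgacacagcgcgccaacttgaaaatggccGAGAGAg
rpl-15/K11H12.8, chrIV:654881-654981, plus strand: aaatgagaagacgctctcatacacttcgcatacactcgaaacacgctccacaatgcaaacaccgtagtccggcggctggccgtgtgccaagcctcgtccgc
iff-2/F54C9.14, chrII:8561397-8561497, plus strand: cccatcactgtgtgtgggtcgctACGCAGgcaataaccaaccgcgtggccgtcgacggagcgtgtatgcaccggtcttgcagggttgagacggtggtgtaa
ska-3/rps-12, chrIII:5679081-5679181, plus strand: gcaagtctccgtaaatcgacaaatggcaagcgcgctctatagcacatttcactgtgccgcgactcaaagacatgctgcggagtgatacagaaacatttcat
drr-2/set-16, chrIII:13643692-13643792, plus strand: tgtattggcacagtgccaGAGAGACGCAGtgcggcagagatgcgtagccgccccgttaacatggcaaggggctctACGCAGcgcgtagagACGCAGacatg
R107.5/cls-2, chrIII:9054023-9054123, plus strand: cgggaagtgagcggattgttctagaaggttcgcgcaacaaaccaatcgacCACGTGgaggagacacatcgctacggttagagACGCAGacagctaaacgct
F32D8.13/sec-61.G, chrV:10897327-10897427, plus strand: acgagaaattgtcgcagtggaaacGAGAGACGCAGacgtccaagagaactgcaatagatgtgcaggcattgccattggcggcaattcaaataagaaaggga

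A second set of windows shows a stretch of 16 bases that recurred word for word at several members. It was found by counting every 16-base stretch in the members' windows and was therefore chosen after the data were seen. The stretch is in capitals, and each window is printed on the strand where it reads the same way.
T26A8.4/pdtf-1, chrIV:8432910-8433010, minus strand: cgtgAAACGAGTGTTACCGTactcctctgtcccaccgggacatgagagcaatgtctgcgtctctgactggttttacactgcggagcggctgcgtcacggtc
npp-3/top-2, chrII:11874811-11874911, minus strand: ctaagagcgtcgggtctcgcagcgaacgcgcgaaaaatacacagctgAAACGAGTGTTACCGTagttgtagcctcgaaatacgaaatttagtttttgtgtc
rps-23/dpm-3, chrIV:12391295-12391395, plus strand: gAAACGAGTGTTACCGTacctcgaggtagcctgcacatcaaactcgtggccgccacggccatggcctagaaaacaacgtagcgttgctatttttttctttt
rpn-5/scc-1, chrII:4698428-4698528, plus strand: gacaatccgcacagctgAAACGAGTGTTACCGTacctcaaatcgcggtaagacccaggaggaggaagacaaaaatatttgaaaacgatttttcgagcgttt
ppm-1.H/rpl-34, chrIV:12268526-12268626, plus strand: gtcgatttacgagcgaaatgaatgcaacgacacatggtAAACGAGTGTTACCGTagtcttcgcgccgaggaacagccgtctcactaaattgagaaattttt

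This stretch lay within 50 bp of the summit of 7 members, all of them divergent, and 5 of the 7 are printed above. The other 2 were rps-10/rpl-24.1, a pair of ribosomal protein genes, and rps-13/nfx-1. None of the 878 other candidates of the same kind held it at the summit, and among 1122 autosomal optimal peaks in the window of 1 gene there was 1, at rpl-19. The 5 autosomes and the X chromosome together hold 15 exact copies. Of these, 11 lay inside an optimal interval, 2 in a weaker candidate and 2 in no interval. Inside the interval of a member there were 9 copies, which adds rpl-21/C14B9.10 and sec-61.A/rps-18 to the 7. Every one of the 15 copies lay in the promoter window of at least 1 protein-coding gene, and 10 lay in shared windows. Of those 10, 1 had no optimal interval, and it lay on the X chromosome. With at most 1 base changed, the stretch was found at 13 members (2.73%, interval 1.60 to 4.62), at 4 of the 1122 peaks in the window of 1 gene (0.357%, 0.139 to 0.913) and at 0 of the 878 other shared candidates (up to 0.436%). Among the 13 were ify-1/rpl-22 and snt-2/rps-29, each with 1 ribosomal protein gene, the proteasome and RNA polymerase pair pas-4/rpb-3, rde-4/cox-14, R04F11.5/R04F11.2 and Y37E3.8/phb-1. The copies have a common sequence, so these members are not independent observations of a site.

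The pooled candidate list let the members be set beside weaker intervals in the same kind of place. The list was cut by the authors at 30000 intervals, of which 23481 counted here were autosomal, and the optimal peaks were its 3647 strongest. Over all autosomal candidates, 12.1% were optimal (2833 of 23481). Among candidates in shared windows the share was 35.2% (476 of 1354, interval 32.7 to 37.7). For divergent pairs it was 37.2% (438 of 1177, 34.5 to 40.0), and for same-strand neighbours 20.4% (34 of 167, 15 to 27.1). Candidates in the window of 1 gene were optimal in 15.4% (1122 of 7292, 14.6 to 16.2) and those in no window in 8.32% (1235 of 14835, 7.89 to 8.78). The interval for divergent pairs thus lay above that for 1 gene, whereas that for same-strand neighbours overlapped it. Candidates in 3 or more windows (29 of 78, 37.2%, 27.3 to 48.3) were optimal at a share close to those in 2 (447 of 1276, 35%, 32.5 to 37.7). Each autosome showed a like share for shared windows, from 31.5% on IV to 40.1% on I. On the X chromosome, not part of the members, it was 34.8% (31 of 89, 25.7 to 45.2), beside 20.4% for X candidates in 1 window (322 of 1581, 18.5 to 22.4).

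Measured per length of DNA, shared windows made up 2.69 Mb or 3.26% of the autosomes and held 16.8% of their optimal peaks. That is 177 optimal peaks per Mb, against 54.9 in stretches covered by 1 window and 20.8 outside all windows. Weaker candidates were spread more evenly, with 326, 302 and 229 per Mb in the same order.

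**Figure D1:**
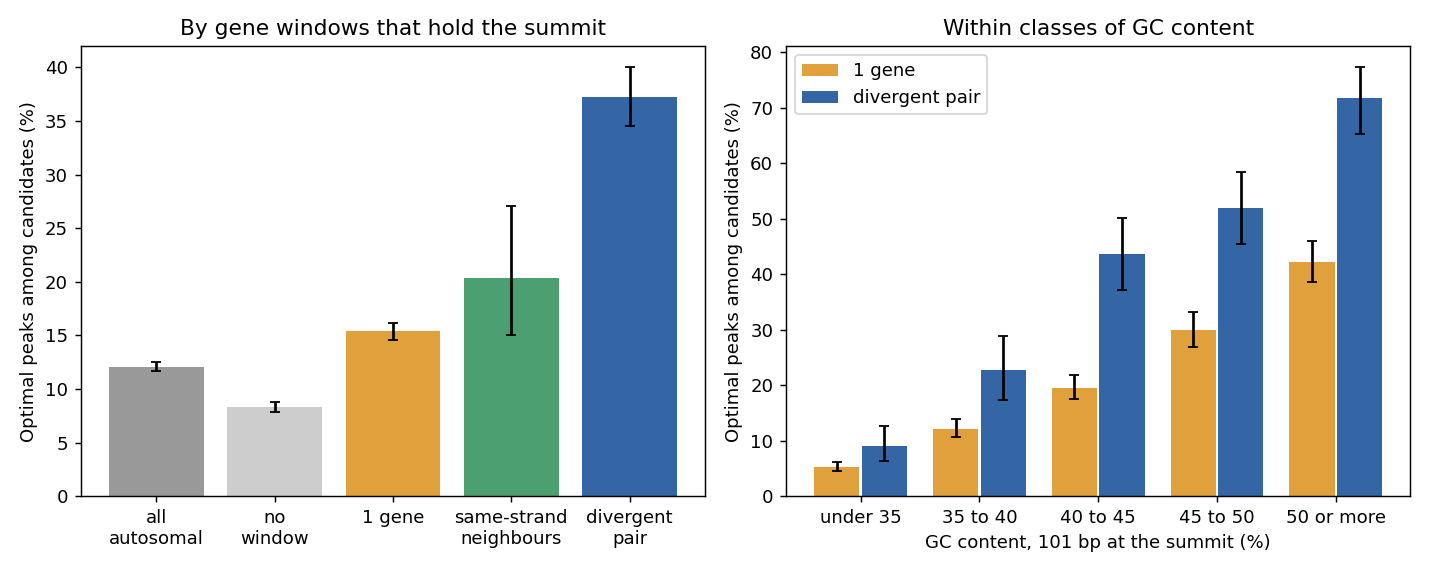
Left, percent of pooled candidates that were optimal peaks, by the promoter windows that held the summit. Right, the same percent within classes of GC content for windows of 1 gene and divergent pairs. Bars are shares and error bars 95% Wilson intervals. Divergent pairs stand at 37.2% and windows of 1 gene at 15.4%, and the divergent bar is the higher one in each of the 5 GC classes.

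Summits of members were rich in G and C. The median GC content of the DNA at the summit was 46.5% (lowest 18.8, highest 70.3), while 400 bp to the side it was 37.6%. The other shared candidates had a median of 37.6% at the summit and the optimal peaks of 1 window 44.6%. GC content moved with the share of optimal peaks, so the shares were also taken within GC classes. Under 35% GC, 9.03% of divergent candidates (29 of 321, 6.36 to 12.7) and 5.31% of those in 1 window (160 of 3012, 4.57 to 6.17) were optimal. From 40 to 45% GC the shares were 43.6% (95 of 218, 37.2 to 50.2) and 19.5% (256 of 1310, 17.5 to 21.8). At 50% GC or more they were 71.7% (152 of 212, 65.3 to 77.3) and 42.3% (284 of 672, 38.6 to 46.0). Both kinds rose with GC, and divergent candidates had the larger share in each class. The same-strand shares, over 18 to 54 candidates a class, had wide intervals that overlapped those of 1 window in all 5 classes.

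Distance to the 5′ end was also compared. With the nearer 5′ end 0 to 99 bp away, 35.2% of divergent candidates were optimal (151 of 429, 30.8 to 39.8) and 12.9% of those in 1 window (203 of 1568, 11.4 to 14.7). At 250 to 499 bp the shares were 41.3% (34.7 to 48.2) and 18.9% (269 of 1424, 16.9 to 21). At 500 to 1000 bp they were 21.4% (15 of 70, 13.4 to 32.4) and 13.3% (287 of 2166, 11.9 to 14.7), where the intervals overlapped.

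Several of the strongest members stood at ribosomal protein genes. The peak between rpl-20, which encodes a protein of the large ribosomal subunit, and Y17G9B.5 (chrIV:4749917-4750237) had a pooled signal of 987, with 398 in replicate 1 and 590 in replicate 2. The signal is the score that the authors' caller gave a peak, and it is used here only to rank and describe peaks within a list. Its summit lay 290 bp upstream of rpl-20 and 172 bp upstream of Y17G9B.5. Next came K01G5.10/tasp-1 (chrIII:10759088-10759427), at 969 pooled, 388 in replicate 1 and 580 in replicate 2; tasp-1 encodes a taspase-like protease. The peak at rpl-15/K11H12.8 (chrIV:654772-655086) had 875, 376 and 502. All 3 ranked within the first 14 of the whole pooled list and within the first 14 of each replicate list.

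Behind them the signal fell by steps. The peak at nhl-2/tag-340 (chrIII:4899763-4900102; nhl-2 encodes an RNA-binding cofactor of the microRNA pathway) had 644 pooled, 249 in replicate 1 and 387 in replicate 2. At iff-2/F54C9.14 (chrII:8561303-8561579), where iff-2 encodes the translation factor eIF5A, the values were 639, 254 and 387. The peak at ifet-1/rps-1 (chrIII:4475530-4475787) had 619, 250 and 363, and here both genes act in translation, since ifet-1 encodes a partner of the cap-binding protein and rps-1 a protein of the small subunit. At ska-3/rps-12 (chrIII:5679005-5679268) the summit lay 126 and 167 bp from the 5′ ends, with values of 595, 240 and 351; ska-3 encodes a kinetochore protein. Thus 4 of the 7 strongest divergent members had a ribosomal protein gene on one side.

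Among the next 5 divergent members was a gene of the receptor's own family. The peak at H12C20.7/nhr-68 (chrV:11572868-11573191) had 580 pooled, 199 in replicate 1 and 379 in replicate 2; nhr-68 encodes a nuclear hormone receptor known for control of propionate breakdown. CACGTG, the E-box bound by many basic helix-loop-helix factors, stood within 50 bp of its summit. Values at drr-2/set-16 (chrIII:13643598-13643897), a translation factor gene beside one for a histone H3K4 methyltransferase, were 571, 252 and 320. The peak at rpl-12/lin-54 (chrIV:13240537-13240819) had 557, 248 and 308, and lin-54 encodes the DNA-binding subunit of the DREAM complex. At mif-4/ipla-6 (chrIV:6336723-6337064) the summit was 915 and 744 bp from the ends, and the values were 467, 159 and 309. The peak at gpap-1/scpr-1 had 463, 184 and 274. Replicate 2 was the higher one at each of these members, and the 2 replicates have no common scale, so ranks are compared below.

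**Figure D2:**
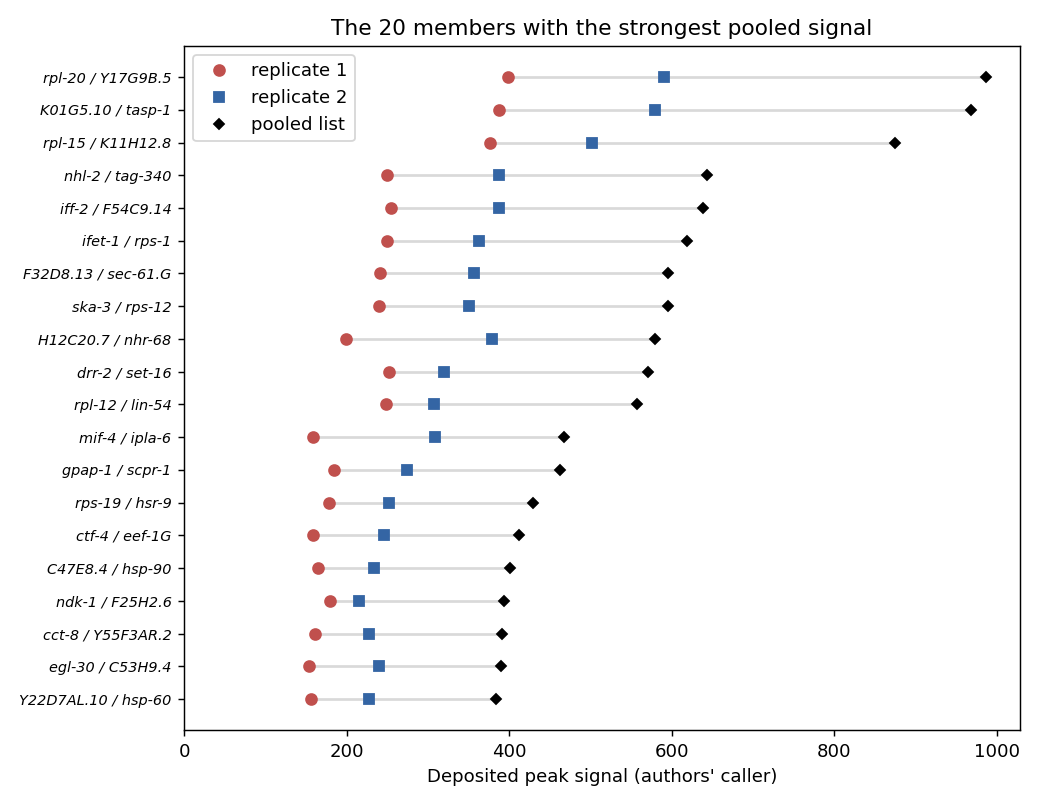
Deposited signal of the 20 members with the strongest pooled signal, 1 row for each member, labelled with its genes. Circles are replicate 1, squares replicate 2 and diamonds the pooled list, and no error bars are drawn because each list holds 1 value per peak. Pooled values run from 384 at Y22D7AL.10/hsp-60 to 987 at rpl-20/Y17G9B.5, and replicate 2 lies to the right of replicate 1 in every row.

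As a group, members had a median pooled signal of 97.8 (lowest 52.3, highest 987), beside 85.7 for optimal peaks in 1 window and 84.7 for those in no window. With the autosomal optimal peaks ranked by signal and divided into 4 equal groups, members made up 21.3% of the strongest group (151 of 709, 18.4 to 24.5), then 16.8%, 15.8% and 13.3% (94 of 708, 11 to 16) of the following ones. Of the 100 strongest autosomal peaks, 28 were members. The single strongest autosomal peak, at 1244, lay in 1 window and was not a member. Same-strand members had a median of 115 (34 peaks, 52.6 to 596) and divergent members one of 98.3, and the quartiles of these kinds overlapped widely.

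The members were also looked up in the single replicate lists. The pooled list was derived from these same 2 replicates, so overlap with them is not an independent recovery. A member counted as recovered when it overlapped an interval ranked among the 3647 strongest of a replicate list. That was so for 413 members in replicate 1 (86.8%, 83.4 to 89.5) and 427 in replicate 2 (89.7%, 86.7 to 92.1). Both replicates recovered 374 (78.6%, 74.7 to 82.0), against 832 of 1122 peaks in 1 window (74.2%, 71.5 to 76.6). Members also had the higher median pooled signal (97.8 against 85.7), and the shares were not matched for signal. Neither recovered 10 members. Across 475 members with an interval in both lists, the replicate signals had a Spearman rho of 0.781 and a Pearson r on the log2 scale of 0.829; over 1118 peaks in 1 window these were 0.661 and 0.739. Those are descriptions across peaks that come from the same 2 libraries.

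A few members were uneven. At rha-1/T07D4.5/ddx-19, a divergent group with RNA helicase genes, the pooled signal of 54 came with 7.03 in replicate 1 (rank 23997) and 41.6 in replicate 2 (rank 2577). The peaks at tiar-1/lelo-4 (9.34 and 48.5) and F25B5.6/F25B5.3 (13.6 and 69.0) leaned the same way. The reverse held at zipt-2.2/dpy-13, a zinc transporter gene beside a cuticle collagen gene, with 50.1 in replicate 1 (rank 1094) and 12.2 in replicate 2 (rank 12879). There ZK973.11/ZK973.1 (42.6 and 17.4) and supr-1/dnj-28 (39.6 and 17.5) followed. Only F55A11.6/F55A11.11, with 93.7 in replicate 2, had no interval in replicate 1; an annotated snoRNA gene, F55A11.10, lies near its summit.

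**Figure D3:**
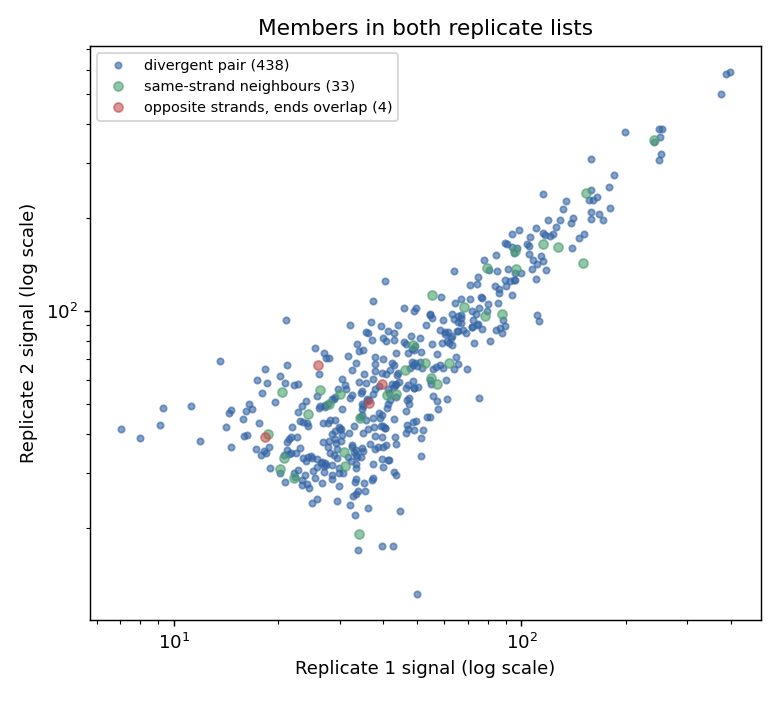
Signal in replicate 1 and replicate 2, both on log scales, for the 475 members with an interval in both replicate lists, coloured by kind. Each point is 1 member. The points form 1 rising band (Spearman rho 0.781), which is wider at low signal, and the few same-strand and overlapping members lie within the band of the 438 divergent ones.

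At the lower edge the members ran into the other candidates without a gap. The 3 weakest members, mrpl-9/kin-3 (a mitochondrial ribosomal protein gene and the gene for the casein kinase 2 catalytic subunit), Y81G3A.1/gcn-2 and flap-1/inf-1, all had a pooled signal of 52.3. The strongest other candidates of the kind were npp-9/F59A2.5/golg-4 at 51.9, T16G1.9/T16G1.18 at 51.1 and agl-1/pfs-2 at 51.0. In the replicates, mrpl-9/kin-3 had 11.9 and 38 while agl-1/pfs-2 had 28.1 and 19.8. The threshold that made a peak optimal therefore separates neighbours of nearly the same signal.

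In divergent members the summit usually lay between both 5′ ends. This held for 409 of 438 (93.4%, 90.7 to 95.4), compared with 585 of 739 weaker divergent candidates (79.2%, 76.1 to 81.9). The ends were a median 518 bp apart (quartiles 332 and 765) in members and 607 bp in the weaker candidates. Within the gap, the median distance to the nearer end was 161 bp and to the farther end 354 bp, beside 158 and 479 bp in the weaker candidates. The summit fell in the central 50% of the gap in 261 of 409 (63.8%, 59.0 to 68.3). For the weaker candidates this was 344 of 585 (58.8%, 54.8 to 62.7), and the intervals overlapped. It was within 100 bp of an end in 129 members (31.5%) and in 191 of the 585 (32.6%). Summits showed no side: 198 of 409 were nearer the plus-strand gene (48.4%, 43.6 to 53.2).

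Spacing of the genes was also read from the annotation rather than from the peaks. The autosomes have 2382 annotated divergent pairs with 5′ ends up to 2000 bp apart, and 452 of them had an optimal summit between the ends, which is 19.0%. Any pooled candidate was found in 996 (41.8%, 39.8 to 43.8). The share with an optimal summit was highest at a spacing of 200 to 399 bp (109 of 447, 24.4%, 20.6 to 28.6) and 400 to 599 bp (91 of 379, 24.0%). It was 16.3% at 1000 to 2000 bp (117 of 717, 13.8 to 19.2) although such gaps are longer. Below 200 bp the share per pair was lowest, at 8.68% (21 of 242, 5.75 to 12.9), where candidates of any strength were also fewest (18.2%). Per length of DNA between the ends this class was not the lowest, at 652 optimal summits per Mb. The density was 832 per Mb at 200 to 399 bp and 490 at 400 to 599 bp, and fell to 126 at 1000 to 2000 bp. Of the pairs, 18 had 2 or more optimal summits between their ends, 12 of them in the widest class.

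**Figure D4:**
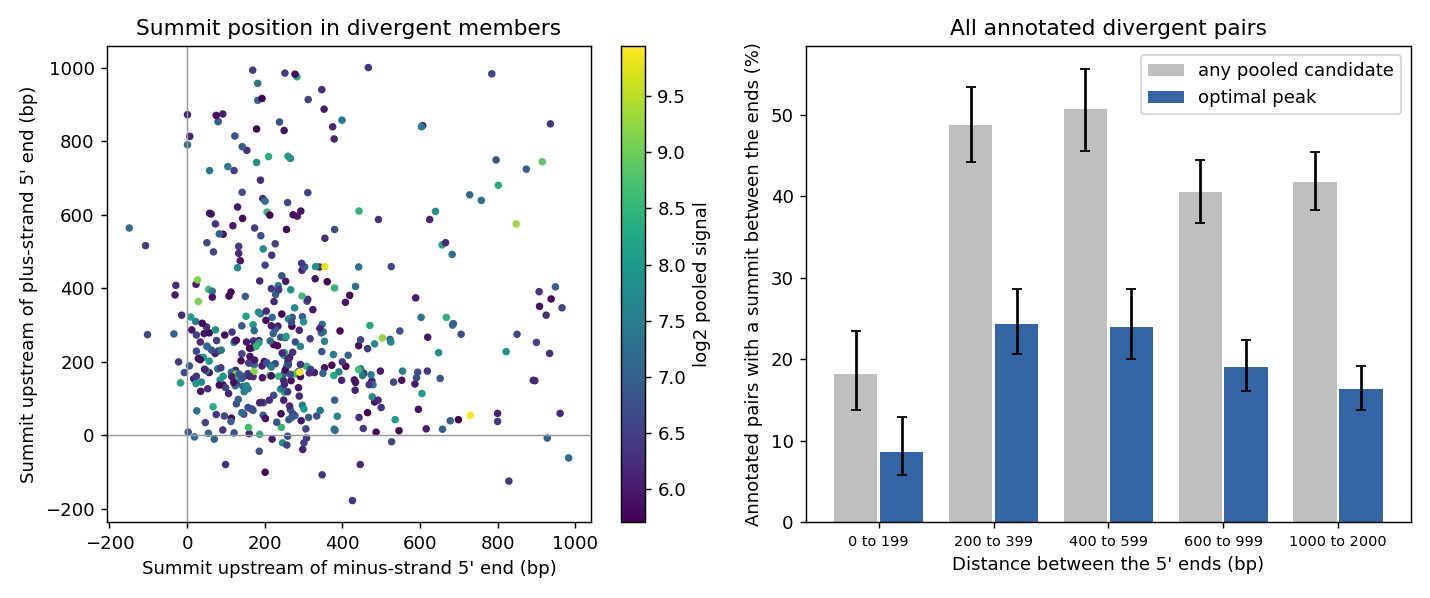
Left, position of the summit in each of the 438 divergent members, as the distance in bp upstream of the minus-strand and of the plus-strand 5′ end, coloured by log2 pooled signal. Right, percent of annotated divergent pairs with a summit between the ends, by the spacing of the ends in bp, for any pooled candidate and for optimal peaks, with 95% Wilson intervals. Most points lie upstream of both ends (409 of 438), and the optimal share peaks at 24.4% for 200 to 399 bp.

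Most members lay outside annotated genes. The summit base was intergenic in 369 of 476 (77.5%, 73.6 to 81.0), compared with 518 of 878 other shared candidates (59.0%, 55.7 to 62.2) and 692 of 1122 optimal peaks in 1 window (61.7%, 58.8 to 64.5). It fell in an exon of a protein-coding gene in 37 members (7.77%, 5.69 to 10.5) and in 213 of the other shared candidates (24.3%, 21.5 to 27.2). Introns of protein-coding genes held 29 members (6.09%, 4.28 to 8.61) and 13.2% of other shared candidates (11.1 to 15.6). Exons of noncoding genes held 41 members (8.61%, 6.41 to 11.5) and 3.53% of other shared candidates (2.50 to 4.97). For optimal peaks in 1 window the share in noncoding exons was 6.51% (5.21 to 8.10).

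Same-strand members were few and lay upstream of both genes. This was so for 32 of 34 (94.1%, 80.9 to 98.4) and for 68 of 133 weaker same-strand candidates (51.1%, 42.7 to 59.5), of which 58 lay between the ends. In 15 of the 34 (44.1%) the annotated gene bodies overlapped, and in the other 19 they were a median 109 bp apart. The weaker same-strand candidates were alike, with overlap in 60 of 133 (45.1%) and a median gap of 111 bp in the rest. The strongest was F32D8.13/sec-61.G (chrV:10897212-10897502), at 596 pooled, 241 in replicate 1 and 357 in replicate 2; sec-61.G encodes the gamma subunit of the endoplasmic reticulum translocon, and the summit was 234 bp upstream of it. The peak at egl-30/C53H9.4 had 390, 153 and 240, and egl-30 encodes the Gq alpha protein. It also had one of the most GC-rich summits, at 68.3%. At ddp-1/ttc-7 (294, 150 and 143), ddp-1 encodes a chaperone of mitochondrial import. The ribosomal protein gene rps-28, with Y41D4B.4, had 289, 127 and 161. Below these came pqn-51/K11D12.14 (276, 115 and 165), rpb-11/W01G7.4 (251, 95.9 and 156; rpb-11 encodes an RNA polymerase II subunit), tub-2/Y71G12A.5 (231, 96.4 and 137) and swp-1/rpl-23 (216, 79.6 and 138).

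The 4 members whose opposite-strand genes overlapped at their 5′ ends were weaker. They were abcf-3/F42A10.5 (97.2 pooled, 39.8 in replicate 1 and 58.2 in replicate 2), wrb-1/Y50D4A.4 (94.9, 26.0 and 66.7), Y54E10BR.2/rpb-7 (89.8, 36.4 and 50.4) and nhr-101/pms-2 (53.9, 18.3 and 39.3). They pair an ABC-family gene, a gene of tail-anchored protein insertion, an RNA polymerase II subunit gene and a nuclear receptor gene beside a mismatch repair gene with their neighbours. All 4 lay below the median member signal of 97.8. The only member in 4 windows was Y62E10A.20/Y62E10A.23/mdt-9/lsm-3 (chrIV:13386053-13386442), at 99.2, 35.3 and 62.5, where mdt-9 encodes a Mediator subunit and lsm-3 an Lsm RNA-binding protein. The strongest member in 3 windows was rab-18/kbp-4/par-2 (chrIII:1080640-1080857), at 295, 117 and 176; its summit lay 17 bp inside rab-18.

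Some pairs of genes had more than 1 member. For 20 members, forming 10 pairs, another member had the same set of genes. In 6 of the 10 both summits were measured from the same 5′ ends, and in the other 4 from different annotated ends of the same genes, with at least 1 of the summits in an intron. Of the 6, rpl-1/Y71F9AL.9 alone had signals over 2-fold apart, at 213 and 62.8, and at supr-1/dnj-28 (61.6 and 52.5) both were near the threshold. Of the other 4, eef-1B.1/aco-2 had 277 and an intronic peak at 71.1, where eef-1B.1 encodes a translation elongation factor, and T26A8.4/pdtf-1 had 327 and an intronic peak at 117.

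The genes at members were then grouped by 20 lists made from gene names. Each list holds only genes whose names begin in a chosen way, so genes of like function with other names are not counted. Rankings within a list cover its listed names only. Counting was limited to genes with a pooled candidate in shared windows, 2400 in all, of which 960 or 40.0% had a member. Of the cytosolic ribosomal protein genes, 43 of 53 had one (81.1%, 68.6 to 89.4). Their 41 members had pooled signals from 62.8 to 987 with a median of 174, beside 97.8 over all members. In replicate 1 their signals ran from 16.1 to 398 with a median of 74.5, and in replicate 2 from 28.8 to 590 with a median of 109. In 12 of the 34 divergent members with exactly 1 such gene, it was the nearer one (35.3%, 21.5 to 52.1), an interval that holds an even split. Mitochondrial ribosomal protein genes were at 9 of 30 (interval 16.7 to 47.9%), an interval that holds the background of 40.0%. Their strongest members were mrps-7/Y57G11C.3 (261 pooled, 118 in replicate 1 and 136 in replicate 2), rpl-28/mrpl-49 (133, 49.4 and 77.2) and Y39A1A.21/Y39A1A.22/mrpl-12 (107, 37.9 and 67.6).

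Other lists of protein synthesis, folding and breakdown had shares from 31.2% to 66.7%. Listed translation factors had a member at 10 of 18 (55.6%, 33.7 to 75.4). After iff-2 the strongest listed ones were ctf-4/eef-1G (412, 158 and 246) and clsp-1/eef-2 (365, 159 and 198). In both, the summit lay 22 bp from the 5′ end of the elongation factor gene. The list does not hold drr-2, whose member had 571 pooled. Chaperone genes had one at 14 of 21 (66.7%, 45.4 to 82.8). The strongest were C47E8.4/hsp-90 (401, 165 and 234), cct-8/Y55F3AR.2 (391, 161 and 228) and Y22D7AL.10/hsp-60 (384, 156 and 228), which encode a cytosolic chaperone, a chaperonin subunit and the mitochondrial chaperonin. Here the chaperone gene was the nearer one in 3 of 15. Aminoacyl-tRNA synthetase genes had a member at 5 of 16 (31.2%, 14.2 to 55.6), with ears-2/uncp-18 at 152, aars-1/rga-1 at 85.8 and fars-1/rbm-5 at 72.9. Proteasome genes had one at 9 of 21 (42.9%, 24.5 to 63.5), led by hsp-110/rpn-3 at 297, pbs-1/K08D12.3 at 155 and pas-4/rpb-3 at 147. The chaperone interval alone among these lay wholly above the background of 40.0%.

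Among genes of energy metabolism and RNA processing, the respiratory chain and ATP synthase list had a member at 11 of 18 (61.1%, 38.6 to 79.7). Its strongest was mcrs-1/atp-1 (342, 139 and 192), with the summit 3 bp from the 5′ end of atp-1, which encodes the alpha subunit of ATP synthase. Next among the listed names were Y71H2AM.20/cox-6B/nduc-2 at 254 and rpl-36.A/nuo-1 at 165. The list leaves out names that begin with ndu, such as ndua-8 (217 pooled) and nduf-2.2 (184 pooled). In 8 of 10 divergent members with exactly 1 listed gene, it was the nearer one (80.0%, 49.0 to 94.3), an interval that holds an even split. Splicing factor genes had a member at 13 of 23 (56.5%, 36.8 to 74.4), and rsp-2/rsp-1 at 191 joined 2 genes for SR proteins in 1 gap. Among the listed names it was followed by clu-1/prp-40 at 168 and prp-19/K10D2.5/emb-1 at 125. RNA polymerase subunit genes had one at 5 of 14 (35.7%, 16.3 to 61.2) and nuclear pore genes at 5 of 11 (45.5%, 21.3 to 72.0), led by npp-3/top-2 at 244, npp-14/cel-1 at 130 and unc-40/npp-7 at 121.

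Replication and cell cycle genes had a member at 9 of 14 (64.3%, 38.8 to 83.7), with cdk-5/kel-3 at 262, cdc-6/acin-1 at 166 and pqn-21/cye-1 at 80.5. For membrane trafficking the count was 14 of 33 (42.4%, 27.2 to 59.2), with icd-1/vps-32.1 at 353 and sec-61.B/trap-3 at 314 after sec-61.G. Ubiquitin and SUMO genes had a member at 5 of 8, with ubq-2/frg-1 at 183, aka-1/ubc-6 at 145 and vps-25/uba-2 at 74.4. The vacuolar ATPase list had 2 of 5 (C17H12.2/vha-8 at 212, sqv-3/vha-1 at 153), kinetochore and spindle genes 1 of 6 (T10B5.3/knl-3 at 178) and tubulin and actin genes 1 of 2 (tbb-1/rib-2 at 85.8). Histone genes were at 6 of 17 (35.3%, 17.3 to 58.7), in 3 members that each served a pair, among them his-67/his-68 with alg-5 at 272, his-31/his-32 at 74.2 and his-35/his-41 at 57.6; histone genes are near-identical copies, so reads there may be split between them. None of these intervals lay wholly apart from the background of 40.0%, for the lists where one was computed.

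Collagen genes had a member at 8 of 15 (53.3%, 30.1 to 75.2), with col-38/rpl-5 at 153, the same-strand pair col-159/col-160 at 81.7 and col-62/C15A11.7 at 80.1. Nuclear receptor genes had one at 4 of 16 (25%, 10.2 to 49.5), namely nhr-68 at 580, nhr-47 with dnj-19 at 156, nhr-142 with F44E7.9 at 98.9 and nhr-101 at 53.9. The list of names beginning with sr had 9 of 33 (27.3%, 15.1 to 44.2); most, though not all, encode chemoreceptors. Its members included rsr-1/sri-5 at 211 and srz-97/clec-57 at 100. In all, 163 members had at least 1 listed gene and 23 had 2 or more.

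Those 23 members include gaps whose genes belong to the same list, of which there were 11. Ribosomal protein genes stood back to back at rps-14/rpl-36 (236 pooled, 110 in replicate 1 and 127 in replicate 2), rps-10/rpl-24.1 (198, 86.2 and 114) and rpl-39/rps-30 (127, 75.7 and 52.2). The last of these was higher in replicate 1, unlike the other 2. Mixed gaps included hsp-110/rpn-3 (297, 115 and 179), a chaperone and a proteasome gene, and rpl-36.A/nuo-1 (165, 74.5 and 90.2), a ribosomal protein and a complex I gene. Among others, sec-61.A/rps-18 had 148, 72.9 and 79.1, and snr-3/rsp-5, both splicing factor genes, 110, 44.1 and 63.1.

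**Figure D5:**
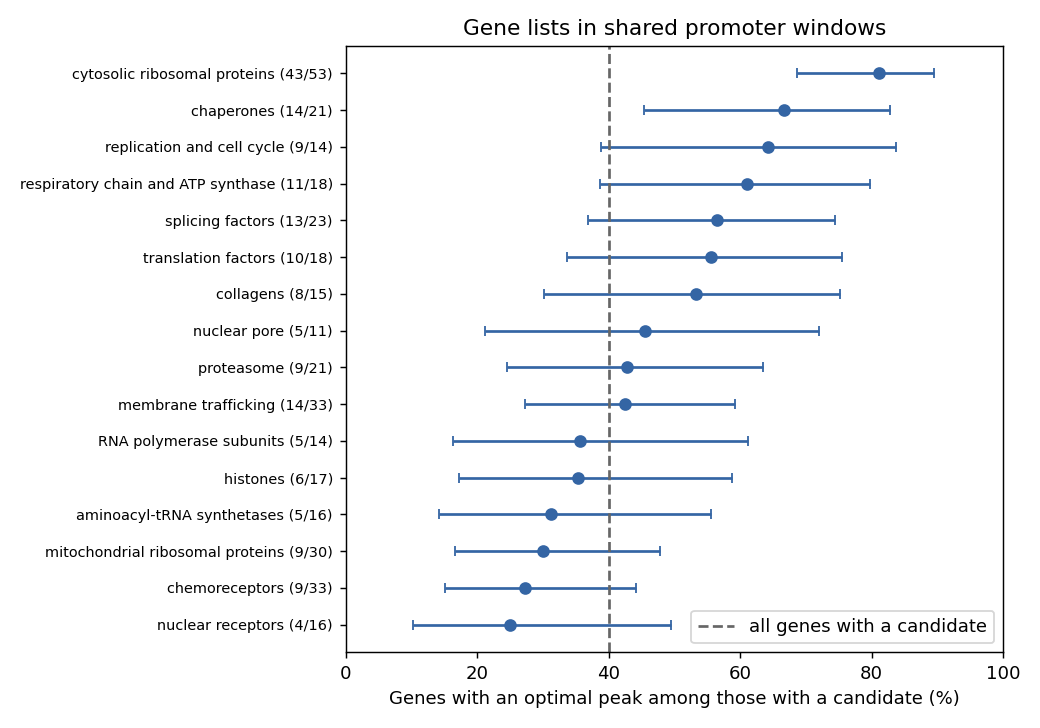
Percent of listed genes with an optimal peak among those with a pooled candidate in shared windows, for the 16 lists with 10 or more such genes. Points are shares, bars 95% Wilson intervals, counts stand beside each name, and the dashed line is the 40.0% over all genes with a candidate. Cytosolic ribosomal protein genes (81.1%) and chaperone genes (66.7%) are the lists whose intervals lie above the line.

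Short words near the summit differed between kinds of peaks. Each word was counted on either strand of the DNA at the summit, once per peak, and overlapping matches of different words were all counted. The receptor half-site AGGTCA was present at 9 members (1.89%, 0.998 to 3.55), at 21 of 878 other shared candidates (2.39%, 1.57 to 3.63), at 43 of 1122 optimal peaks in 1 window (3.83%, 2.86 to 5.12) and at 700 of all 23481 autosomal candidates (2.98%, 2.77 to 3.21). At 400 bp from the summits of members the share was 3.36%. The strongest member with it was F01G4.6/pfd-1, at 239. CACGTG was present at 20 members (4.20%, 2.74 to 6.40) and at 90 peaks in 1 window (8.02%, 6.57 to 9.76), beside 2.93% of all candidates. GAGAGA stood at 86 members (18.1%, 14.9 to 21.8) and 11.3% of all candidates, and ACGCAG at 75 members (15.8%, 12.8 to 19.3) and 4.69% of all candidates. Peaks in 1 window had these words at 22.5% and 14.8%. GAGAGA was also counted within GC classes, because members are richer in GC. The shares were 12.9% of members (11 of 85, 7.38 to 21.7) and 6.98% of candidates (6.58 to 7.40) under 40% GC, 17.0% of members (39 of 229, 12.7 to 22.4) and 17.1% of candidates from 40 to 50% GC, and 22.2% (36 of 162, 16.5 to 29.2) and 24.9% at 50% or more. For ACGCAG the shares were 14.8% (34 of 229, 10.8 to 20) and 7.89% from 40 to 50% GC, and 21.6% (35 of 162, 16 to 28.6) and 14.8% (13.3 to 16.4) at 50% or more, where the intervals overlapped.

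TGATAA, a form of the site of GATA factors, was scarce at members, with 17 of 476 (3.57%, 2.24 to 5.64). It stood at 128 optimal peaks in 1 window (11.4%, 9.68 to 13.4) and at 11.3% of all candidates. Within GC classes the counts were as follows. Under 40% GC it was at 10 of 85 members (11.8%, 6.52 to 20.3) and 79 of 344 peaks in 1 window (23.0%, 18.8 to 27.7), intervals that overlap. From 40 to 50% GC the counts were 6 of 229 (2.62%, 1.21 to 5.6) and 44 of 494 (8.91%, 6.70 to 11.7). At 50% or more they were 1 of 162 and 5 of 284. TATAAA was at 17 members (3.57%), against 12% of other shared candidates, 6.51% of peaks in 1 window and 10.9% at 400 bp from the summits of members. It moved with base composition, and within GC classes the intervals of members overlapped those of peaks in 1 window: under 40% GC it was at 10.6% of members (9 of 85, 5.67 to 18.9) and 11.3% of peaks in 1 window, from 40 to 50% at 1.75% (0.681 to 4.4) and 5.47% (3.78 to 7.84), and at 50% or more at 2.47% and 2.46%.

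Longer words were searched for without a list. Among 9-base words in 15 or more members, 8 with largely separate members were at least 3 times as frequent there as at other shared candidates and 2 times as frequent as at peaks in 1 window. They were chosen for that difference, so their shares are a description. The windows below show examples for 3 of them, not the strongest members with each word, GCGAGACCC, GCGCCAGCA and CGCGCTCCA, with the word in capitals.
hat-1/M03C11.3, chrIII:10407408-10407508, plus strand: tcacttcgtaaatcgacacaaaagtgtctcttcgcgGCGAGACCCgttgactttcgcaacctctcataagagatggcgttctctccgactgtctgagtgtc
hsp-110/rpn-3, chrIII:8447115-8447215, plus strand: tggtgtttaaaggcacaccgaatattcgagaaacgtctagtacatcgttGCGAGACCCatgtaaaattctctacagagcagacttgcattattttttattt
dnsn-1/C24H12.4, chrII:411014-411114, minus strand: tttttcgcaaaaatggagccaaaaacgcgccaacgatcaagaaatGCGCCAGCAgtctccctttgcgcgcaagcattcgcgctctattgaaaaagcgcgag
ddp-1/ttc-7, chrIII:1859692-1859792, minus strand: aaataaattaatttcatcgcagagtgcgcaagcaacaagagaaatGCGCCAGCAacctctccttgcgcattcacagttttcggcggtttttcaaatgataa
haf-3/F57A10.2, chrV:15766339-15766439, minus strand: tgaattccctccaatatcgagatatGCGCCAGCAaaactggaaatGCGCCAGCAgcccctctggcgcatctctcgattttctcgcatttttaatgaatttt
Y48B6A.1/rpl-43, chrII:14154502-14154602, plus strand: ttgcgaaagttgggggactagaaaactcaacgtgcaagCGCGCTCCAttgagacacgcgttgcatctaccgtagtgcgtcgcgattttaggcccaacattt
polh-1/rps-22, chrIII:1950366-1950466, plus strand: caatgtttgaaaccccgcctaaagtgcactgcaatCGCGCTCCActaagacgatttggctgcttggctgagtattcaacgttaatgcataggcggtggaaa

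GCGAGACCC was at 29 members (6.09%, 4.28 to 8.61), 13 of 878 other shared candidates (1.48%), 19 of 1122 peaks in 1 window (1.69%) and 5 of 1235 peaks in no window (0.405%). It followed GC content: at 50% GC or more it was in 21 of 162 members (13.0%, 8.64 to 19.0) and 16 of 284 peaks in 1 window (5.63%, 3.5 to 8.95). Other shared candidates of that class had it at 6 of 69 (8.70%, 4.05 to 17.7). From 40 to 50% GC it was at 3.06% of members (1.49 to 6.17) and 2.55% of other shared candidates (1.24 to 5.18). In both classes the intervals of members and other shared candidates overlapped. GCGCCAGCA was at 25 members (5.25%, 3.58 to 7.64), 6 other shared candidates (0.683%), 24 peaks in 1 window (2.14%) and 1 in no window, and haf-3/F57A10.2 held it in 2 places. Its 25 members were 20 divergent, 4 same-strand and 1 overlapping. CGCGCTCCA was at 21 members (4.41%) and 15 peaks in 1 window (1.34%). AAACGAGTG, the first part of the 16-base stretch, was at 16 members (3.36%, 2.08 to 5.39), 2 other shared candidates, 3 peaks in 1 window and 3 in no window. The other 4 words were GTGTTTGCA at 21 members, GAGGAGTAC at 20, ACCGTACCC at 18 and GCGTCAGCA at 16. From 40 to 50% GC, GAGGAGTAC was at 3.93% of members (2.08 to 7.30) and 3.65% of other shared candidates (1.99 to 6.59). Another 16-base stretch, with 99 copies in the genome, was at 7 members, and all 7 are among the 20 with GAGGAGTAC. No single one of the 8 was at more than 6.09% of the members.

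Repeated DNA and small RNA genes were checked at the same summits. A 20-base stretch that occurs 10 or more times in the genome was at the summit of 29 members (6.09%, 4.28 to 8.61), 37 of 878 other shared candidates (4.21%), 59 of 1122 peaks in 1 window (5.26%) and 8.18% of the 1235 in no window. Without such windows the share of optimal peaks among shared candidates was 34.7% (447 of 1288, 32.2 to 37.3), beside 35.2% with them. The 16-base search found 3 further stretches, at 5 to 7 members each, with 33 to 99 copies in the genome. A tRNA, snRNA or snoRNA gene lay within 250 bp of the summit of 14 members (2.94%, 1.76 to 4.88), the strongest being ska-3/rps-12 at 595, tim-1/Y75B8A.23 at 362 and let-70/klc-1 at 323. That compares with 62 of 1122 peaks in 1 window (5.53%) and 140 of 1235 in no window (11.3%). Over all 23481 autosomal candidates the count was 466 (1.98%, 1.81 to 2.17). For the other shared candidates it was 13 of 878 (1.48%, 0.867 to 2.52). The interval of members overlapped both of these. Leaving out candidates near such genes gave 36.9% optimal for divergent pairs and 14.8% for 1 window.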

How the data were processed

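Peak lists for 2 biological replicates of 1 group were analysed. Per the text listing deposited beside the lists, intervals were called on ChIP alignments with a control alignment; the sources used here name no aligner, caller or threshold for them. The authors deposited 30000 candidate intervals per replicate and pooled, and 3647 optimal peaks, on ce11, per the labels and file names; the ce10 lists were not used. Each interval had a signal, as deposited by the authors, and a −log10 q-value, the authors' own as well, which was the same for all optimal peaks and was not used to rank. Summits, starts and ends were deposited in bp and are printed 1-based. The files give no read counts, so depth is unknown.

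Summits were assigned to windows around 29326 annotated 5′ ends of protein-coding transcripts (Ensembl release 115, WBcel235). Candidates overlapping no optimal interval by at least 1 bp were the other candidates; 694 autosomal and X candidates that overlapped one were counted once, through the optimal peak. GC content and words were read from RefSeq's genome of the same build. The lists group genes by name; the named members were the strongest of each kind and list, the most uneven and those at the threshold. Windows overlapping annotated exons, and some chromosomes, are not printed, and 1 member that the naming rule selects is not reported here. Members and lists were chosen with earlier results of these data known. Python 3.11.15, NumPy 2.4.6, pandas 2.3.3, SciPy 1.17.1 and matplotlib 3.10.9 were used, and the window rule was tested on simulated data. Alternatives changed the window, the 5′ ends, the strength of peaks and candidates, repeated entries and single replicates.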

Additional observations from a re-analysis of the deposited data

How the results depend on the processing

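The number of members and the shares of optimal candidates were recomputed under 8 other settings. With windows of 2000 bp upstream there were 778 members, and with the stronger 50% of optimal peaks 268. The share of optimal peaks in shared windows, 35.2%, was 42.9% with windows of 500 bp upstream, 26.8% with 2000 bp, 19.5% for the stronger 50% of peaks and 56.4% among the 10000 strongest candidates. For divergent pairs, 37.2%, the values were 45.1%, 29.0%, 20.6% and 57.1%, and for same-strand neighbours, 20.4%, they were 11.2% for the stronger 50% and 47.9% among the 10000 strongest. Windows of 1 gene, at 15.4%, went to 17.2%, 12.7%, 7.34% and 40.0% in the order of the divergent values. Over all autosomal candidates the share was 12.1% with either window, 5.91% for the stronger 50% and 36.8% among the 10000 strongest. Among the 10000 strongest, windows of 1 gene were thus near the share over all. Divergent pairs exceeded them there by a smaller margin than in the main setting. Divergent pairs had a larger share than same-strand neighbours and windows of 1 gene under each of the 8 settings (the 10 candidates at overlapping genes were not recomputed), while with 500 bp windows same-strand neighbours (8 of 53, 15.1%) were lower than windows of 1 gene (17.2%), with so few candidates that the intervals are wide. Ranking by a single replicate gave 453 to 458 members, 32.7% to 34.0% for shared windows, 34.7% to 35.6% for divergent pairs and 19.7% to 22.1% for same-strand neighbours. The median signal of members has no value under a single replicate, because each list has its own scale. With the window around the summit widened to 100 bp on either side, the median GC content of members was 40.3%, and GAGAGA was at 27.9%. No paired analysis was possible because the series holds 1 group. No depth is known, so a peak missing from a replicate may be absent or undetected.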
